A study of Mus musculus with 15 samples.

Results

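The SLC30 zinc transporters (ZnT proteins) were examined in RNA sequencing of sorted mouse islet cells. The members were the rows of the expression table whose gene symbol was Slc30a1 to Slc30a10, which gave 10 genes of 38283 in the table, and 7 of the 10 were abundant enough to be tested. The samples were 5 of alpha cells, 4 of beta cells and 6 of delta cells, all from C57BL/6 mice. Alpha and beta cells were sorted from islets of mice with the genotype Glu-Venus, in which the Venus fluorophore is driven by the proglucagon promoter. Alpha cells were taken as Venus-positive, and beta cells as Venus-negative cells with high scatter and autofluorescence, so that beta cells carried no fluorescent label of their own. Delta cells were sorted as EYFP-positive cells from mice with the genotype Sst-CreXROSA26EYFP/EYFP, in which Cre is driven by the Sst promoter and switches on EYFP from the Rosa26 locus. The animals' age is not given in the sources used here. Islets of several mice were pooled for each sample, so that n counts pools and the p-values measure the spread between pools. The mouse line differed between delta cells and the other cell types, and the effects of line and cell type cannot be told apart in comparisons with delta cells. In such bulk samples, fewer cells that contain a transcript and less transcript per cell cannot be told apart.

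ZnT proteins move zinc out of the cytosol, either across the plasma membrane or into organelles and vesicles, and thereby act in the opposite direction to the ZIP importers of the SLC39 family. ZnT8, encoded by Slc30a8, is known for its place in the islet, where it loads zinc into insulin secretory granules and the zinc is stored in crystals with insulin. ZnT1 exports zinc from the cell, ZnT5 and ZnT6 work as a heterodimer in the early secretory pathway, ZnT7 resides at the Golgi, and ZnT2, ZnT3 and ZnT4 serve vesicles in other tissues, such as the synaptic vesicles of the brain (ZnT3) and the secretory vesicles of the mammary gland (ZnT2 and ZnT4).

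All levels are FPKM, read numbers scaled by the length of the transcript and by the size of the library, and can therefore be compared between genes. Differences between cell types are differences of mean log2(FPKM + 1), which understate the change of transcripts present at low levels. Each was tested with limma over the 14405 genes that averaged above 1 FPKM in at least 1 cell type, and an adjusted p (Benjamini-Hochberg, over all of these genes) under 0.05 counted as a call. The sorted populations carried their hormones: Gcg averaged 273077 FPKM in alpha cells, Ins2 295241 FPKM in beta cells and Sst 163268 FPKM in delta cells. Hormones of other cell types were also present: Ppy, the pancreatic polypeptide gene, averaged 30424 FPKM in alpha, 45.05 in beta and 21473 in delta cells, and Sst averaged 1619 FPKM in alpha and 165 in beta cells. Ins2 averaged 5534 FPKM in alpha and 5768 in delta cells, Ins1 2026 and 1670 FPKM, and Gcg 636 FPKM in beta and 515 in delta cells. Transcripts of 8 acinar genes summed to 0.0651 to 76.6 FPKM in alpha, 0.0493 to 10.9 in beta and 2.47 to 465 in delta samples. Ductal markers summed to at most 18.9 FPKM in any sample, and endothelial, leukocyte and stellate markers to at most 0.996, 2.81 and 0.0381 FPKM. Summed FPKM of 84 ribosomal protein genes split the samples into 6 with high sums (3 alpha, 1 beta and 2 delta samples, 66048 to 141551 FPKM) and 9 with low sums (2, 3 and 4 samples, 8177 to 39064 FPKM), a split that runs across all cell types. Read totals could be inferred from the spacing of low values in 6 samples, where they came to 7.45 to 30.6 M reads, and in 9 samples the depth could not be told.

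Slc30a8 was the one family member whose level differed between cell types by the test. It was among the most abundant transcripts of alpha and beta cells and was present in delta cells at under 1% of their mean levels. The gene lies on chromosome 15, chr15:52295553-52335798 on the plus strand (GRCm38), and its single annotated transcript of 1971 nt has 8 exons.

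In alpha samples 1 to 5, Slc30a8 stood at 289, 376, 384, 96.9 and 149 FPKM. In beta samples 1 to 4 it stood at 166, 568, 97.7 and 276 FPKM. In delta samples 1 to 6 it stood at 3.14, 2.31, 3.11, 2.84, 1.75 and 0.922 FPKM. Alpha and beta samples overlapped, with beta sample 2 above all alpha samples, whereas the highest delta sample lay far below the lowest sample of either other cell type. The means were 259 ± 131 FPKM in alpha cells (SD, n = 5), 277 ± 208 FPKM in beta cells (SD, n = 4) and 2.35 ± 0.877 FPKM in delta cells (SD, n = 6). Among all 38283 genes ordered by mean FPKM, Slc30a8 took rank 252 in alpha, 195 in beta and 10424 in delta cells.

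**Figure D1:**
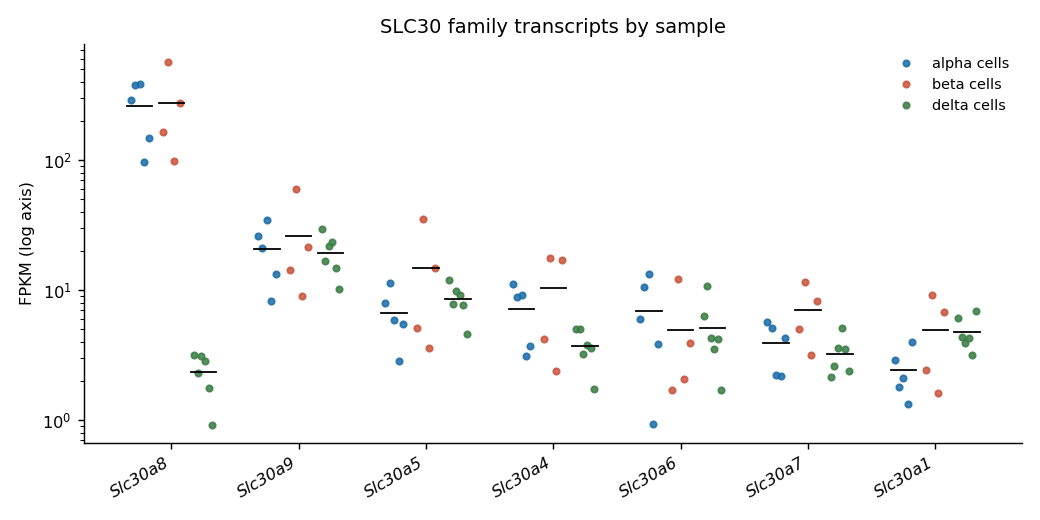
FPKM (log axis) of the 7 tested SLC30 genes in each alpha (blue), beta (red) and delta (green) sample, with a bar at the mean of each cell type. Slc30a8 separates delta samples (0.922 to 3.14 FPKM) from all alpha and beta samples (96.9 FPKM and above), and the points of the other 6 genes overlap between cell types.

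Mean Slc30a8 FPKM was 110-fold lower in delta than in alpha cells. On the log2(FPKM + 1) scale the difference was -6.14 (SE 0.480, 95% confidence interval -7.16 to -5.12), with a limma adjusted p of 4.28e-07, and the groups did not overlap. Among the 14405 genes it was the 4th most negative difference of delta against alpha cells. Against beta cells, the mean FPKM of delta cells was 118-fold lower. This log2 difference was -6.12 (SE 0.511, 95% confidence interval -7.21 to -5.04), with a limma adjusted p of 7.51e-07 and again no overlap, and it took rank 6 from the most negative. Both calls held when any 1 sample was left out, under other scalings and within the samples of low ribosomal protein sums alone, where the differences were -5.32 and -5.78.

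Between beta and alpha cells, the Slc30a8 difference was -0.02 on the log2 scale (SE 0.531, limma adjusted p = 1). Its 95% confidence interval ran from -1.14 to 1.11, so that these samples do not exclude a difference of about 1 log2 unit in either direction. The direction of this small difference changed with the scaling, to 0.24 after median-ratio size factors and 0.47 after quantile normalisation.

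The read depth allowed the delta values to be read as more than single counts. In the delta samples with a resolved depth, numbers 1 to 4, Slc30a8 corresponded to about 61, 41, 168 and 129 reads. In alpha samples 2 and 5 it corresponded to about 4967 and 6705 reads.

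The low Slc30a8 level of delta samples is best seen beside other transcripts of beta and alpha cells that were present at low levels in the same samples. Slc30a8 in delta cells was 0.906% of the alpha mean (0.356% to 1.21% over samples) and 0.848% of the beta mean (0.333% to 1.13%). Ins1 and Ins2 in delta cells were 2.08% and 1.95% of their beta means. Ucn3, which encodes urocortin 3 and marks mature beta cells, was at 1.23% of its beta mean, and Slc2a2, which encodes the glucose transporter GLUT2, at 1.07%. Gcg was at 0.189% of its alpha mean. The Slc30a8 percentages thus lay below those of both insulin genes, near those of Ucn3 and Slc2a2, and above that of Gcg. The part of other islet cells in the Slc30a8 signal of delta samples was not tested.

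**Figure D2:**
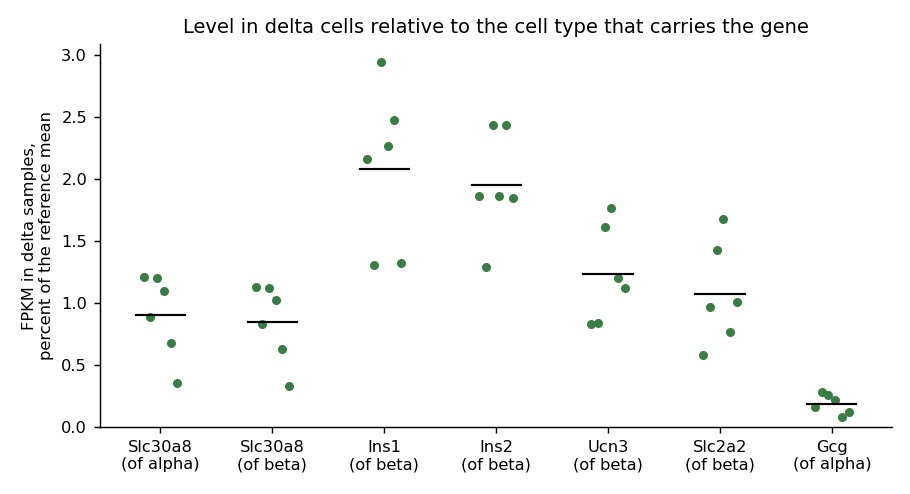
Level of 6 transcripts in each delta sample as a percentage of their mean FPKM in the cell type named under each, with a bar at the mean over the 6 delta samples. Slc30a8 lies at 0.333% to 1.21% of the alpha or beta mean, Ins1 and Ins2 at 1.29% to 2.94% of the beta mean and Gcg at 0.0866% to 0.281% of the alpha mean.

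The make-up of the family differed accordingly. Slc30a8 made up 81.2% to 86.5% of the summed SLC30 FPKM in alpha samples, with a mean of 83.9% ± 2.02 (SD, n = 5). In beta samples it made up 79.2% to 83.5%, with a mean of 81.0% ± 2.00 (SD, n = 4). In delta samples it made up 3.25% to 6.26%, with a mean of 4.84% ± 1.01 (SD, n = 6). These shares do not change when a sample is multiplied by a single scaling factor. In alpha and beta samples Slc30a8 made up most of the sum, so that its share moves less than in proportion when its level changes. Summed over all members, the family came to 307 ± 151 FPKM in alpha, 345 ± 264 in beta and 47.2 ± 12.2 in delta cells. Without Slc30a8 the sums were 47.8 ± 20.5, 68.3 ± 56.2 and 44.8 ± 11.4 FPKM (SD), and their ranges overlapped.

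**Figure D3:**
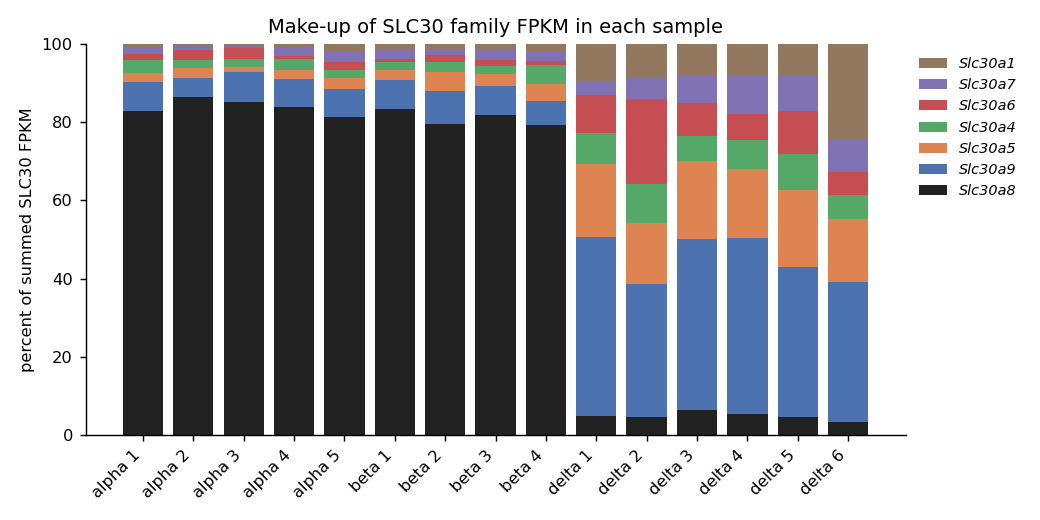
Share of each SLC30 gene in the summed SLC30 FPKM of each sample, in percent, with samples on the horizontal axis. Slc30a8 (black) takes 79.2% to 86.5% of the sum in alpha and beta samples and 3.25% to 6.26% in delta samples, where Slc30a9 (blue) holds the largest share.

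Slc30a9 came second in alpha and beta cells and first in delta cells. Its product, a widely expressed member of the family, is found in mitochondria. It stood at 26.2, 21.2, 34.7, 8.18 and 13.3 FPKM in alpha samples 1 to 5, and at 14.4, 60.1, 9.09 and 21.6 FPKM in beta samples 1 to 4. In delta samples 1 to 6 it stood at 29.3, 16.8, 21.9, 23.5, 14.9 and 10.2 FPKM. The means of 20.7 ± 10.5, 26.3 ± 23.1 and 19.4 ± 6.82 FPKM (SD) did not differ beyond this spread. Differences on the log2 scale were 0.14 for beta against alpha, -0.01 for delta against alpha and -0.15 for delta against beta cells (limma adjusted p of 0.920, 1 and 0.883). Slc30a9 gives a reference within the family, and the ratio of Slc30a8 to Slc30a9 was 11.04 to 17.7 in alpha, 9.46 to 12.7 in beta and 0.0905 to 0.142 in delta samples.

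The members of the early secretory pathway, Slc30a5, Slc30a6 and Slc30a7, were present in all 15 samples, and none was called in any comparison of the FPKM as deposited. Slc30a5 averaged 6.70 ± 3.19 FPKM in alpha, 14.7 ± 14.7 in beta and 8.51 ± 2.48 in delta cells (SD). Its partner Slc30a6 averaged 6.94 ± 5.04, 4.95 ± 4.86 and 5.14 ± 3.16 FPKM. For both, the order of the means lay within the spread, with adjusted p between 0.489 and 0.910 by limma.

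After Slc30a8, Slc30a7 had the smallest p of the family, in delta against beta cells. It averaged 3.88 ± 1.61 FPKM in alpha, 7.01 ± 3.71 in beta and 3.21 ± 1.08 in delta cells (SD). In beta samples 1 to 4 it stood at 5.00, 11.6, 3.16 and 8.30 FPKM, and in delta samples 1 to 6 at 2.15, 2.61, 3.56, 5.07, 3.51 and 2.37 FPKM. The groups overlapped, and beta samples 2 and 4 were the highest. The difference of delta against beta cells was -0.84 (SE 0.354, unadjusted p = 0.0306, limma adjusted p = 0.129), and that of beta against alpha cells was 0.66 (SE 0.368, limma adjusted p = 0.304). This gene depended on the scaling: after median-ratio size factors both differences passed the test, at -1.16 (adjusted p = 0.00370) and 0.87 (adjusted p = 0.0317). With FPKM as deposited but without beta sample 3, delta against beta also passed, at -1.11 (limma adjusted p = 0.0493).

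Slc30a4, which serves secretory vesicles and endosomes, averaged 7.18 ± 3.55 FPKM in alpha, 10.3 ± 8.16 in beta and 3.72 ± 1.24 in delta cells (SD). Beta samples 2 and 4 stood at 17.6 and 17.0 FPKM and beta samples 1 and 3 at 4.20 and 2.37 FPKM, so that the beta samples fell on both sides of the alpha and delta means. The difference of delta against beta cells was -0.94 (SE 0.495, limma adjusted p = 0.230). After median-ratio size factors it was -1.25 (adjusted p = 0.0198), which passed.

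Slc30a1, the plasma membrane exporter, averaged 2.42 ± 1.04 FPKM in alpha, 4.97 ± 3.56 in beta and 4.79 ± 1.43 in delta cells (SD). Alpha samples stood at 1.32 to 3.97 FPKM and delta samples at 3.16 to 6.93 FPKM, overlapping in the highest alpha sample. The difference of delta against alpha cells was 0.78 (SE 0.358, unadjusted p = 0.0453, limma adjusted p = 0.279). That of beta against alpha cells was 0.64 (SE 0.397, limma adjusted p = 0.355), and beta and delta means did not differ beyond their spread.

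**Figure D4:**
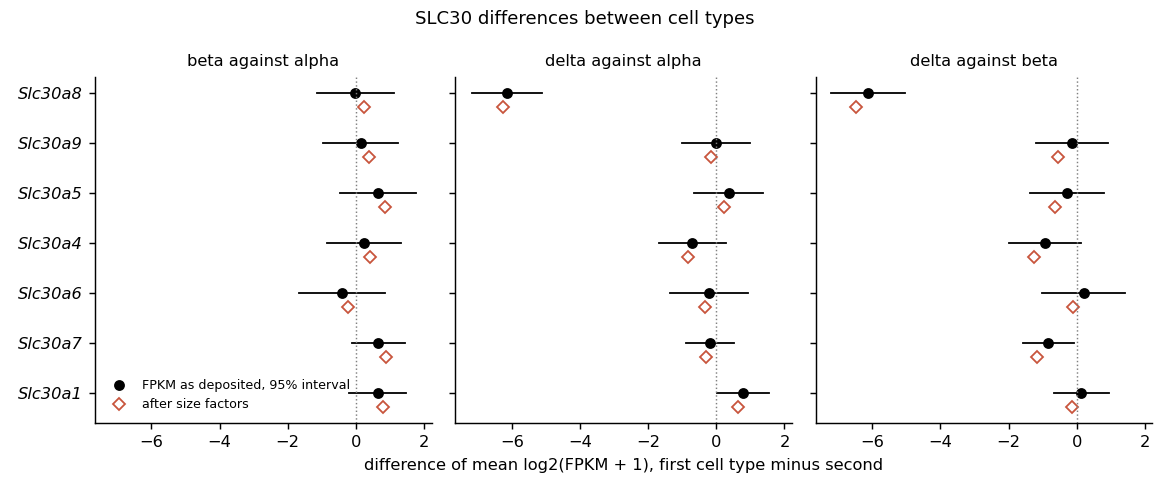
Difference of mean log2(FPKM + 1) for each tested SLC30 gene in the 3 comparisons, from FPKM as deposited (filled, with 95% confidence interval) and after median-ratio size factors (open). Slc30a8 lies at -6.14 and -6.12 in the comparisons with delta cells, and the other genes lie between -0.94 and 0.78 as deposited.

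The remaining 3 members were absent or nearly so. Slc30a2 and Slc30a3 were listed at 0 in all 15 samples. Slc30a10, a manganese exporter by its known function, was listed above 0 in 3 samples only, at 0.00286 FPKM in alpha sample 4, 0.00609 in beta sample 3 and 0.00475 in delta sample 5. None of them entered the test. Slc30a2 is known from pancreatic acinar cells, and it stayed at 0 also in the delta samples with the highest acinar sums. These sums reached at most 465 FPKM, and whether that would bring measurable Slc30a2 was not tested.

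Counted over the family, 0 of 7 tested members were called in beta against alpha cells by limma, where 7.66% of all tested genes were called (2.84% higher and 4.82% lower in beta cells). An unadjusted p under 0.05 was found for 0 of 7 members and 22.9% of all tested genes. In delta against alpha cells, 1 of 7 was called (Slc30a8, lower), where 6.81% of all tested genes were called (5.33% higher, 1.48% lower), and 2 of 7 had an unadjusted p under 0.05, against 16.7% of all. In delta against beta cells, 1 of 7 was called (Slc30a8, lower), where 14.7% of all tested genes were called (11.7% higher, 2.99% lower), and 2 of 7 had an unadjusted p under 0.05, against 28.4% of all. After median-ratio size factors 3 of 7 were called lower in delta than beta cells (Slc30a4, Slc30a7 and Slc30a8), where 18.6% of all genes were called and 9.1% were called lower, and 1 of 7 was called in beta against alpha cells (Slc30a7, higher), where 14.6% of all were called. Quantile normalisation gave the same counts of members. Nothing about the family as a whole is read from counts of 7 genes. The members' median differences were 0.23, -0.18 and -0.29, beside -0.13, 0.13 and 0.30 over all tested genes. The comparisons share samples and are not independent of each other.

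Relative to the mean, beta samples varied most for all 7 tested members. Their coefficients of variation were 52.9% to 99.6%, against 41.6% to 72.6% in alpha and 29.2% to 61.4% in delta cells. The beta sample numbered 2 stood apart. It held the highest value of all 15 samples for 6 of the 7 tested members, and the highest of the beta samples for all 7. Its median-ratio size factor was also the largest, at 1.73 against 0.457 to 1.33 in the other samples, so that FPKM ran high in it beyond this family. The share of all tested genes that were highest in it was not counted. The coefficients of variation are of FPKM as deposited and include such differences between whole samples. Without beta sample 2, Slc30a8 in delta against beta cells was at -5.68 and stayed called, and no other member was called in any comparison. The small differences of other members turned without it, to -0.36 for Slc30a9 and -0.13 for Slc30a4 in beta against alpha cells, and to 0.36 for Slc30a9 and 0.28 for Slc30a5 in delta against beta cells.

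The transcripts most like Slc30a8 across the 15 samples, by Pearson's correlation of log2(FPKM + 1), were Ociad2 (r = 0.983), Nell1 (0.972), Skap1 (0.972), Ddc (0.966) and Acat1 (0.964). These correlations describe 15 samples of 3 cell types and carry no test. Like Slc30a8, all 5 were high in alpha and beta samples and low in delta samples. Ociad2 averaged 68.3 FPKM in alpha, 71.2 in beta and 2.59 in delta cells. Ddc, which encodes aromatic L-amino acid decarboxylase, averaged 98.6, 173 and 5.40 FPKM. Acat1, a mitochondrial acetyl-CoA acetyltransferase, averaged 121, 167 and 14.6 FPKM. Skap1, an adaptor protein known from T cells, averaged 17.3, 25.1 and 0.535 FPKM, and Nell1, a secreted protein, 37.2, 33.1 and 1.14 FPKM.

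The ZIP importers of the SLC39 family, which bring zinc into the cytosol, were described in the same way. Of 14 genes 9 were tested. In beta against alpha cells 2 were called, both lower, where 4.82% of all tested genes were called lower. In delta against beta cells 3 were called, all higher, where 11.7% of all tested genes were called higher. The counts were not tested against those of all genes or of the SLC30 family. In delta against alpha cells 0 of the 9 were called by limma, where 6.81% of all tested genes were called, and 0 had an unadjusted p under 0.05, against 16.7% of all. Their median differences were -0.40, 0.57 and 0.24 in the same order, beside -0.13, 0.30 and 0.13 over all tested genes.

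Slc39a11, which encodes ZIP11, set beta cells apart. It stood at 8.53, 14.6, 9.57, 8.26 and 6.84 FPKM in alpha samples 1 to 5, at 0.141, 0.308, 0.240 and 0.498 FPKM in beta samples 1 to 4, and at 9.67, 10.2, 4.27, 6.74, 4.85 and 3.61 FPKM in delta samples 1 to 6. Every beta sample lay below every other sample, while alpha and delta samples overlapped. The difference was -2.99 for beta against alpha cells (SE 0.326, limma adjusted p = 1.76e-05) and 2.47 for delta against beta cells (SE 0.313, limma adjusted p = 6.16e-05). Both calls held under every alternative tried.

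Slc39a1, a plasma membrane importer, averaged 6.99 ± 2.54 FPKM in alpha, 2.37 ± 1.96 in beta and 8.78 ± 2.45 in delta cells (SD). The difference of beta against alpha cells was -1.33 on the log2 scale (SE 0.376, limma adjusted p = 0.0401), with overlap of the samples, and this call was lost in 14 of 26 alternatives. The difference of delta against beta cells was 1.65 (SE 0.361, limma adjusted p = 0.00571), also with overlap, and was lost in 1 of 26. Slc39a3 averaged 2.60 ± 1.48, 0.979 ± 0.510 and 4.54 ± 1.69 FPKM (SD), and was higher in delta than beta cells by 1.46 (SE 0.340, limma adjusted p = 0.00847) without overlap, a call lost in 1 of 25 alternatives. Slc39a3 and Slc39a11 averaged under 1 FPKM in beta cells and were tested because of their levels in the other cell types. Median acinar sums were 13.4 FPKM in alpha, 1.80 FPKM in beta and 36.5 FPKM in delta samples, and Ppy was likewise lower in beta samples (16.9 to 98.1 FPKM) than in alpha (17728 to 41392 FPKM) and delta samples (10857 to 48600 FPKM). The part of acinar RNA or of Ppy-expressing cells in these differences was not tested. Slc39a5, an importer known from acinar cells, was listed at 0 in 14 of the 15 samples and at 0.135 FPKM in delta sample 5. Of the members not called as deposited, Slc39a13 was called in both comparisons with beta cells, and Slc39a7 in delta against beta cells, within the samples of low ribosomal protein sums. Slc39a8 was called in both comparisons with delta cells when no filter was applied.

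**Figure D5:**
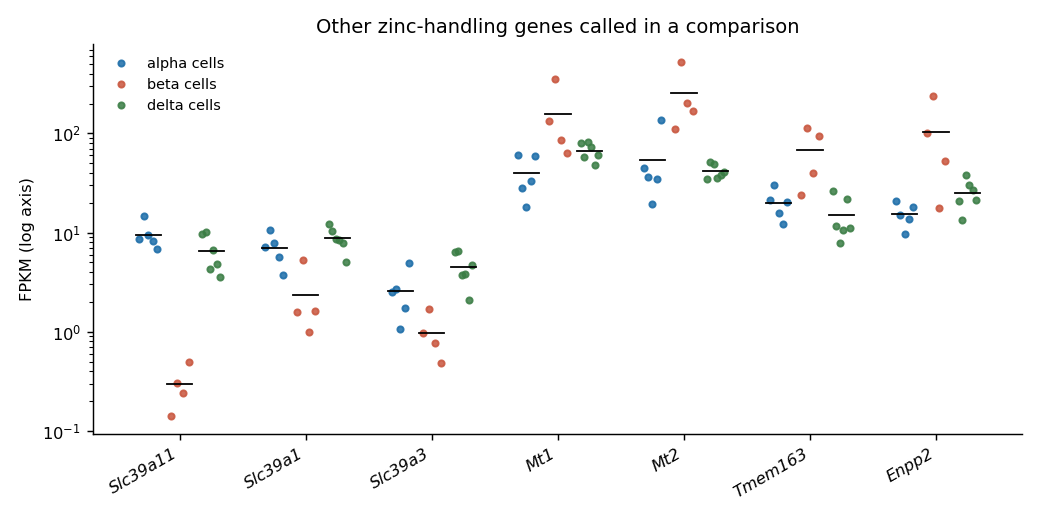
FPKM (log axis) in each sample of the 7 other zinc-handling genes that were called in at least 1 comparison, with alpha (blue), beta (red) and delta (green) samples and a bar at each mean. Slc39a11 lies at 0.141 to 0.498 FPKM in beta samples and at 3.61 FPKM or above in all others, and Mt1, Mt2, Tmem163 and Enpp2 have their highest mean in beta cells.

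The metallothioneins bind zinc in the cytosol, and their transcription is raised by zinc through the metal-sensing transcription factor MTF-1. Slc30a1 is known as another target of MTF-1. The bases upstream of these genes are shown because Mt1 and Mt2 were both called in beta against alpha cells, Mt1 less firmly, and Slc30a1 was not. A link between the sequences and these calls was not tested. The sequences are from RefSeq (GRCm38.p6), plus strand, from 250 bases before the RefSeq gene start to the last base before the first annotated base of RefSeq or GENCODE. They cover chr1:191906531-191906766 for Slc30a1, chr8:94178839-94179081 for Mt1 and chr8:94172368-94172617 for Mt2. Capitals mark the core of the metal response element, TGCACNC or TGCGCNC, on either strand, and no match overlaps another.
Slc30a1: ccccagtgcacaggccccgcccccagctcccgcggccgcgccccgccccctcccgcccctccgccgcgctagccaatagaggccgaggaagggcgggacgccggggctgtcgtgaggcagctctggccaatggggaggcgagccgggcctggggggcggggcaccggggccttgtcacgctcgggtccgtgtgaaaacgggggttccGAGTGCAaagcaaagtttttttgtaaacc
Mt1: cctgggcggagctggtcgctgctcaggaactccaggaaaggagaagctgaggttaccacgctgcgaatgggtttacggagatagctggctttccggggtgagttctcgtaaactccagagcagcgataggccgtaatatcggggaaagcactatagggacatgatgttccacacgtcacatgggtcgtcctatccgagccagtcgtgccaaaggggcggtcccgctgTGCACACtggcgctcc
Mt2: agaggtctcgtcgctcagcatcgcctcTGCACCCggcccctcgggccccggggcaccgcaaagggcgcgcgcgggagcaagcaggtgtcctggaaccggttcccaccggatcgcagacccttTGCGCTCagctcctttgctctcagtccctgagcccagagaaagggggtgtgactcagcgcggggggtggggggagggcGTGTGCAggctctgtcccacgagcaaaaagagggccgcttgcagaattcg
Within these windows the core occurs once for Slc30a1 (on the opposite strand), once for Mt1 and in 3 places for Mt2. Bases past the annotated starts or further upstream were not searched, so that these are counts for the windows and not for whole promoters. Over 32851 RefSeq promoters, 21.4% held at least 1 core in the 250 bases before the start, 5.17% at least 2 and 1.26% at least 3. Of the 9 SLC30 genes with a promoter entry, 6 held at least 1 in any of their entries, whereas the shares above count single promoters. Slc30a8 had no promoter entry and is not in this count. Such a match is a stretch of letters and not a measured binding site.

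Mt1 stood at 59.98, 28.5, 18.0, 33.5 and 58.9 FPKM in alpha samples 1 to 5 and at 133, 351, 86.7 and 63.3 FPKM in beta samples 1 to 4. Every beta sample lay above every alpha sample, the nearest pair by little. The difference was 1.78 (SE 0.493, limma adjusted p = 0.0368), and this call was lost in 12 of 26 alternatives. Delta samples stood at 47.9 to 82.2 FPKM, overlapping both other cell types, and Mt1 was called lower in delta than beta cells under 1 of 26 alternatives, size factors.

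Mt2 stood at 44.5, 36.4, 19.4, 34.5 and 138 FPKM in alpha samples and at 112, 529, 202 and 168 FPKM in beta samples, with alpha sample 5 inside the beta range. The difference was 2.27 (SE 0.526, limma adjusted p = 0.0150), lost in 3 of 26 alternatives. Delta samples stood at 34.7 to 51.5 FPKM and did not reach the lowest beta sample. The difference of delta against beta cells was -2.34 (SE 0.506, limma adjusted p = 0.00518) and held under every alternative tried. Within the samples of low ribosomal protein sums, Mt2 averaged 86.2 FPKM in alpha (n = 2), 161 in beta (n = 3) and 40.9 in delta cells (n = 4). Mt3 and Mt4 did not enter the test.

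Mtf1 itself averaged 5.93 FPKM in alpha, 9.63 in beta and 6.08 in delta cells, and it was not called. Of the other zinc-responsive genes, Gpr39, a zinc-sensing receptor, was not called, and Tmem163, a vesicular zinc transporter outside the SLC30 family, was lower in delta than beta cells, with a difference of -1.97 (SE 0.465, limma adjusted p = 0.00916). Tmem163 averaged 20.05 ± 6.86 FPKM in alpha, 67.5 ± 42.3 in beta and 14.96 ± 7.39 in delta cells (SD), with 1 of 26 alternatives losing the call. In beta against alpha cells Tmem163 was not called as deposited, and it was called higher after size factors, quantile normalisation and the ribosomal covariate, with differences of 1.76, 1.58 and 1.75.

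Of 6 zinc-dependent secretory and cell surface enzymes 3 were tested. Enpp2, which encodes the secreted lysophospholipase autotaxin, averaged 15.4 ± 4.31 FPKM in alpha, 103 ± 97.2 in beta and 25.3 ± 8.70 in delta cells (SD). Beta samples 1 to 4 stood at 102, 239, 17.8 and 52.6 FPKM, with sample 3 inside the alpha range of 9.59 to 20.8 FPKM. Enpp2 was higher in beta than alpha cells by 2.15 (SE 0.570, limma adjusted p = 0.0308), and this call was lost in 9 of 26 alternatives. Without beta sample 2 the difference was 1.56 (limma adjusted p = 0.0531). In delta against beta cells Enpp2 was not called as deposited. It was called lower after size factors, after quantile normalisation, without beta sample 3 and within the samples of high ribosomal protein sums, where beta cells had a single sample, number 2. Cpd, a carboxypeptidase of the trans-Golgi network, averaged 4.23 FPKM in alpha, 10.5 in beta and 14.5 in delta cells and was not called, with a difference of 1.75 for delta against alpha cells (SE 0.550, limma adjusted p = 0.0746). Cpe, the carboxypeptidase that trims prohormones, averaged 512, 700 and 377 FPKM and was not called.

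Exons of Slc30a1, Slc30a4, Slc30a7 and Slc30a10 overlap genes annotated on the opposite strand (GENCODE M21), and the use of strand in counting is not given in the sources used here, so that reads of such partners cannot be told apart. No other gene overlaps Slc30a8.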

How the data were processed

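RNA of flow-sorted islet cells was extracted with an RNeasy Plus Micro kit, amplified with the NuGEN RNAseq v2 system and sequenced. The authors deposited FPKM per gene, 1 value per sample for 38283 genes, aligned to GRCm38 with TopHat2 and quantified with Cufflinks, for which the submitters' processing notes give versions 2.0.8 and 2.2.1. The authors' paper names a different version of TopHat. Scaling between samples beyond FPKM is not given in the sources used here. The authors also generated raw counts and used edgeR for their tests, and the raw counts were not used here.

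From the FPKM values, log2(FPKM + 1) was fitted in limma 3.58.1 in R 4.3.3 with a trended prior variance (eBayes), with a mean for each cell type, all 15 samples in 1 fit and no covariate. Genes with a mean above 1 FPKM in at least 1 cell type were tested, which left 14405, and p-values were two-sided and adjusted by Benjamini-Hochberg. The scripts were tested on simulated data. Python 3.11.15, pandas 2.3.3 and matplotlib 3.10.9 were used for annotation and figures. Gene models came from GENCODE M21, where 36341 genes of the table matched.

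Samples were grouped by their labels. The table gives no read totals. In 6 samples they were inferred from the common step between the values of 5024 genes with 1 transcript. Amplified reads are not independent molecules, so that read estimates show sampling depth only.

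The members and lists were chosen with earlier results of these data known, and so was the split at 50000 FPKM of summed ribosomal protein genes. The genes named are the 10 members, genes of the zinc lists called in any comparison, the 5 genes most like Slc30a8, hormone genes and marker genes. Slc39a5, Slc39a7, Slc39a8, Slc39a13, Mtf1, Gpr39, Cpd and Cpe were named after their values were seen. Alternatives were a pseudocount of 0.1, other filters, median-ratio size factors, quantile normalisation, fits of 2 cell types, the replicate number as a block, the ribosomal set as a covariate, an adjusted p under 0.01 and leaving out each sample. The log2 ratio of mean FPKM and fits within each ribosomal set were added after the data were seen.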

Additional observations from a re-analysis of the deposited data

Results flagged for a closer look

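Groups of 4 to 6 samples were searched for 1 sample far from the others relative to the group's range, over 45 groups of family members and related genes. Of the 5 groups found, 3 are those of Slc30a10, where a single value above 0 meets the measure by construction. The other 2 are about as many as chance gives (1 group in 20, or 2.25 of 45). Slc30a10 was above 0 in a single sample of each cell type, at 0.00286 FPKM in alpha sample 4, 0.00609 FPKM in beta sample 3 and 0.00475 FPKM in delta sample 5. Slc39a1 stood at 5.28 FPKM in beta sample 2, where the next beta sample stood at 1.63 FPKM. Mt2 stood at 138 FPKM in alpha sample 5, where the next alpha sample stood at 44.5 FPKM.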

How the results depend on the processing

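Slc30a8 stayed called lower in delta cells under every alternative run. Leaving out 1 sample in turn gave -6.45 to -5.95 against alpha cells and -6.52 to -5.68 against beta cells, and the fits within the ribosomal sets and the log2 ratio of means (-6.79 and -6.88, no test) kept the direction. The higher set's lone beta sample was assumed to vary like the others. The number of SLC30 members called rose from 0 to 1 in beta against alpha cells and from 1 to 3 in delta against beta cells under both median-ratio size factors and quantile normalisation (Slc30a7, and Slc30a7 and Slc30a4, added). Leaving out 1 sample gave 1 to 2 members in delta against beta cells, with 2 without beta replicate 3, and 0 in beta against alpha cells. Size factors took the median difference of all genes from -0.13, 0.13 and 0.30 to 0, 0.001 and 0.0003 in beta against alpha, delta against alpha and delta against beta cells. The share of higher calls went from 37.0%, 78.3% and 79.6% to 52.9%, 67.2% and 50.9% under size factors, and to 47.6%, 56.8% and 50.9% under quantile normalisation.

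The small difference of Slc30a8 in beta against alpha cells turned to 0.24 with size factors, 0.47 with quantile normalisation, 0.36 with the ribosomal covariate, 0.45 and 0.71 in the lower and higher sets and 0.10 as a log2 ratio of means, and lay between -0.46 and 0.38 without 1 sample. Other uncalled differences also changed sign. In beta against alpha cells, Slc30a6 came to 0.13 with the covariate and 0.18 and 0.32 in the lower and higher sets, Slc30a9 to -0.36 to 0.51 and Slc30a4 to -0.13 to 0.69 without 1 sample. In delta against alpha cells, Slc30a9 came to 0.00088 with quantile normalisation, 0.28 with the covariate, 0.63 in the lower set and -0.28 to 0.21 without 1 sample. Slc30a6 came to 0.20 with the covariate, 0.49 in the lower set and -0.64 to 0.082 without 1 sample, Slc30a7 to 0.15 in the lower set, and Mt2 to -0.35 to 0.34 without 1 sample (0.34 without alpha replicate 5) and 0.41 in the higher set. In delta against beta cells, Slc30a1 came to -0.15 with size factors, -0.19 with quantile normalisation, -0.71 in the higher set, -0.052 as a log2 ratio of means and -0.19 to 0.46 without 1 sample. Slc30a6 came to -0.10, -0.19 and -0.49 with size factors, quantile normalisation and the higher set and to -0.076 to 0.68 without 1 sample, Slc30a9 to 0.23 in the lower set and -0.51 to 0.36 without 1 sample, and Slc30a5 to 0.17 in the lower set and -0.72 to 0.28 without 1 sample. The causes were not tested.

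Genes called over all tested in beta against alpha cells numbered 1104, with 2087 under size factors, 1970 under quantile normalisation, 407 when delta samples were left out, 461 at an adjusted p under 0.01, 701 in the higher set and 651 to 1698 without 1 sample. In delta against alpha cells 981 became 518 above 5 FPKM, 567 at an adjusted p under 0.01 and 629 and 153 in the lower and higher sets, and in delta against beta cells 2114 became 1319, 1045 and, in the higher set, 728. Calls in beta against alpha cells lost without 1 sample were Slc39a1 (alpha replicates 1, 2 and 3, beta replicates 1, 3 and 4, or delta replicates 3, 4 and 5; limma adjusted p of 0.0561 to 0.114), Mt1 (alpha replicates 2, 3 and 4, beta replicates 1 and 2, or delta replicates 3 and 4; 0.0514 to 0.0862) and Enpp2 (alpha replicates 2 and 3, or beta replicates 1, 2 and 4; 0.0531 to 0.0916). Besides Slc30a7, calls gained without 1 sample were Tmem163 in beta against alpha cells (beta replicate 1), Cpd in delta against alpha cells (alpha replicate 5 or delta replicate 2), and Enpp2 (beta replicate 3) and Slc39a13 (beta replicate 2) in delta against beta cells.

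Replicate numbers were not treated as pairs, since a shared sort is not given. Same-numbered alpha and beta samples correlated with r of -0.152 to 0.271 in their deviations from the group means, and 1 of 4 beta samples matched its own number best. With the replicate block, 0, 1 and 1 members and 1227, 831 and 2001 genes were called in the 3 comparisons, Slc30a8 stood at -0.14, -5.99 and -5.85, and Slc30a9 turned to 0.15 in delta against alpha and 0.13 in delta against beta cells. Mt1 and Enpp2 lost their beta against alpha calls (limma adjusted p of 0.0630 and 0.0638).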
